A study of Mus musculus with 2 samples.

Results

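The miR-34 and miR-449 family of the mouse was followed on 2 microarrays of the mononuclear cells of the colonic lamina propria, the connective tissue under the gut epithelium. Its 6 members are mmu-miR-34a, mmu-miR-34b, mmu-miR-34c, mmu-miR-449a, mmu-miR-449b and mmu-miR-449c. Probes were chosen by name, taking every arm, which gave 11 of the 1900 mouse miRNA probes on each array. All members but miR-449b, which had 1 probe without an arm in its name, had separate probes for the 5p and the 3p arm of the precursor. Both groups were male Balb/c mice with no treatment named in the labels: 1 array came from germ-free mice, which carry no microbes, and 1 from mice kept specific pathogen-free (SPF), which do carry gut microbes. The labels give neither the age nor the number of mice behind each array. With 1 array per group, no difference below has a replicate check or a p-value, and the number of arrays limits the precision.

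A miRNA guides the silencing complex to messenger RNAs that pair with its seed, bases 2 to 8 from its 5′ end. The Mir34a gene and the Mir34b and Mir34c pair are direct transcriptional targets of p53, the tumour suppressor that answers DNA damage, and their 5p strands repress genes of the cell cycle and of cell survival. The miR-449 genes lie in an intron of Cdc20b, share the seed and are best known for their abundance in multiciliated cells of airway and reproductive tract, a cell type that the colon lacks. In blood cells, miR-34a is known for repressing Foxp1 during B cell development.

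The mature sequences are shown because the shared seed defines the family and because close similarity between members limits what a hybridisation probe can tell apart. RefSeq's table (GRCm38.p6) held a sequence for 9 of the 11 probes, written here 5′ to 3′ with the seed in capitals. The strands with the family seed were:
mmu-miR-34a-5p: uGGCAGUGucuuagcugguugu
mmu-miR-34b-5p: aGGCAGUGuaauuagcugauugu
mmu-miR-449a-5p: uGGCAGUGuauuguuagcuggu
mmu-miR-449c-5p: aGGCAGUGcauugcuagcugg
Among 1679 mature mouse miRNAs in that table, these 4 were the ones with this seed. The table held no sequence for miR-34c-5p and miR-449b, so their absence here does not mean that they lack the seed. Compared base by base from the 5′ end, miR-449a-5p and miR-449c-5p were identical at 18 of 21 positions, and miR-34a-5p and miR-449a-5p at 15 of 22.

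The 3p strands do not carry the family seed. The brightest of them on these arrays were:
mmu-miR-34b-3p: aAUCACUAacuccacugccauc
mmu-miR-34c-3p: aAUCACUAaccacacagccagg
These strands share a seed with each other and with no other miRNA in the table, and they were identical at 17 of 22 positions. No source used here gives the probe sequences, so hybridisation of a probe to its relatives cannot be told apart from its own target.

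The 6 genes lie at 3 places in the GENCODE M21 annotation (GRCm38). Mir34a lies at chr4:150068454-150068555 on the plus strand, and its end overlaps the unclassified transcript Gm37795. Mir34b (chr9:51103562-51103645) and Mir34c (chr9:51103034-51103110) lie on the minus strand, inside an intron of Btg4, which is read from the opposite strand. Mir449c (chr13:113035983-113036091), Mir449b (chr13:113037419-113037498) and Mir449a (chr13:113037534-113037624) lie in an intron of Cdc20b on its own strand.

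Each probe had 1 spot per array, read as a median intensity at 635 nm. The level of an array without target was taken from 3 kinds of spot. Blank spots of the germ-free array averaged 128.5 (SD 4.53, 896 spots), those of the SPF array 158.3 (SD 5.33, 895 spots). Spots named as holding no probe were brighter and more variable, at 143.5 (SD 11.1) and 176.2 (SD 13.0) over 174 spots each, and the 32 negative control spots averaged 155.0 (SD 23.6) and 182.0 (SD 22.8). Net intensity is the spot minus the blank mean, and the floor is the blank mean + 2 SD. A stricter floor, called the no-probe floor here, takes the mean + 2 SD of those spots instead, at intensities of 165.8 and 202.2.

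The family gave weak signals on both arrays, and 8 of the 11 probes lay under the no-probe floor in both cases. Of the 11 probes, 8 exceeded the germ-free floor, 8 the SPF floor and 7 both, 63.6% against 77.4% of all miRNA probes. That floor was also passed by 66.7% and 71.8% of the spots without a probe. Above the no-probe floor on both arrays were 2 family probes, miR-34a-5p and miR-34c-3p, which is 18.2% of the family against 54.8% of all miRNA probes. miR-34b-3p passed it on the SPF array only. The median net intensity over the 11 probes was 17.1 (germ-free) and 21.5 (SPF).

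**Figure D1:**
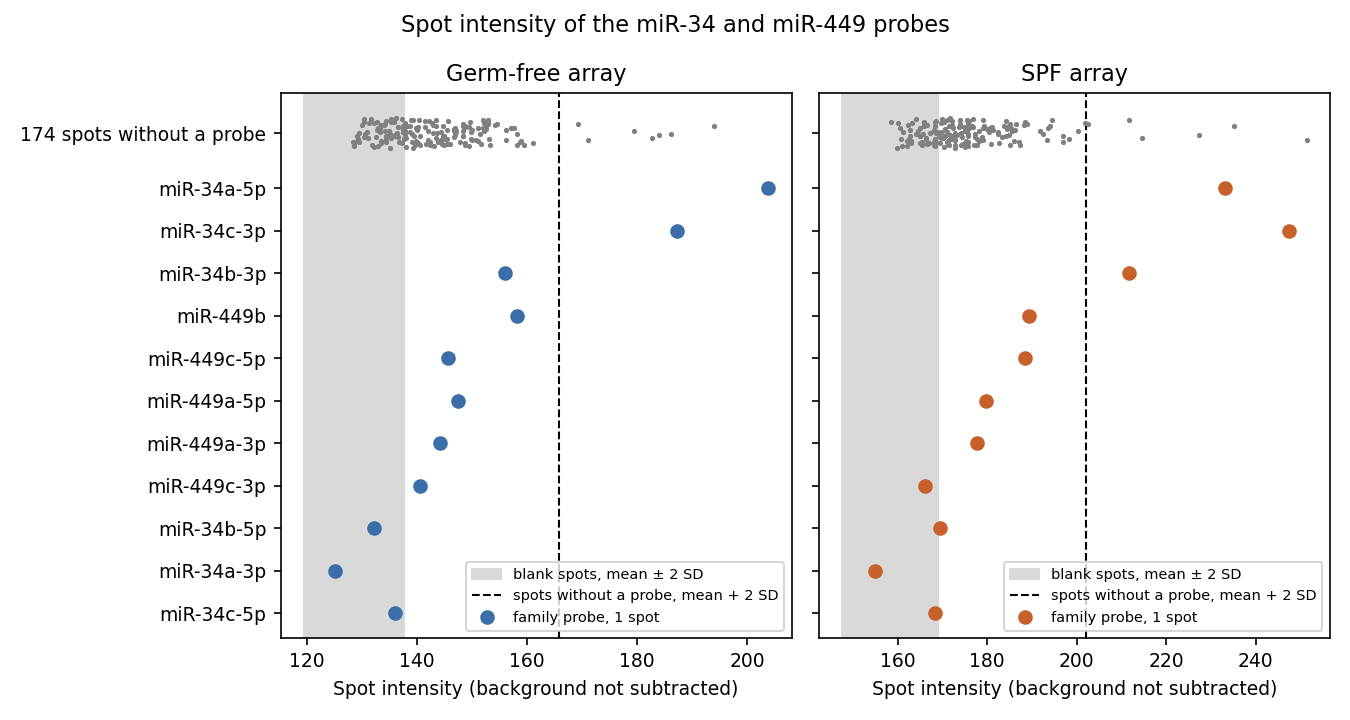
Spot intensity at 635 nm without subtraction (x axis) of each family probe (1 coloured point per array) and of the 174 spots without a probe (grey points, spread vertically for visibility), with the germ-free array on the left and the SPF array on the right. The grey band is the blank mean ± 2 SD and the dashed line is the no-probe floor (165.8 and 202.2). miR-34a-5p and miR-34c-3p lie right of the line on both arrays, and miR-34b-3p on the SPF array only.

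miR-34a-5p, the guide strand of the member most widely expressed across tissues, read 203.9 in germ-free and 233.2 in SPF cells. These are net intensities of 75.3 and 74.8, at percentiles 58.9 and 54.8 of all miRNA probes of the array. None of the 174 spots without a probe was as bright on the germ-free array and 2 were on the SPF array, and none of the 32 negative control spots was as bright on either. Its passenger arm, miR-34a-3p, read 125.1 and 154.9, under the blank mean on both arrays, and every spot without a probe was at least as bright.

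The reading of miR-34a-5p depended on how background is taken. The median intensity around its spot was 176.2 on the germ-free array, the highest of the 11 family spots, and 193.2 on the SPF array. The spot exceeded its surroundings by 27.7 and 40.0, which lie at percentiles 16.7 and 77.6 of the same difference in spots without a probe. A bright spot, miR-1894-3p, lies next to it in the block, at 3118 and 3678. Other family spots with a bright neighbour had differing local backgrounds. miR-449b, beside miR-3473a at 2529 and 3633, had 132.6 and 165.0. miR-34c-5p, beside let-7a-5p at 7523 and 7667, had 111.5 and 138.5. miR-34b-5p, beside let-7d-5p at 5536 and 5604, had 111.1 and 143.0. miR-449c-3p, beside miR-204-3p at 1438 and 1491, had 102.8 and 128.2. The part of a neighbour in the local background was not tested.

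For the Mir34b and Mir34c pair, the 3p probes were brighter than the 5p probes. miR-34c-3p read 187.3 in germ-free and 247.4 in SPF cells, net intensities of 58.8 and 89.1, and 1 of the 174 spots without a probe was as bright on each array. On the germ-free array 3 of the 32 negative control spots were as bright, and on the SPF array none was. miR-34b-3p, next in order, read 156.0 and 211.6, with 17 and 4 of the spots without a probe as bright. miR-34c-3p exceeded its local background by 41.4 (germ-free) and 79.0 (SPF), and miR-34b-3p by 43.1 and 60.9. Among the same differences in spots without a probe, miR-34c-3p lies at percentiles 87.9 and 99.4 and miR-34b-3p at 92.0 and 98.9.

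The 5p strands of this pair, which carry the family seed, were at the level of the blanks. miR-34c-5p read 136.0 and 168.4, under the floor on both arrays. miR-34b-5p read 132.3 on the germ-free array, under the floor, and 169.5 on the SPF array, a net intensity of 11.2 against a floor of 10.7. On the SPF array 130 and 123 of the 174 spots without a probe were at least as bright as these probes. Probes differ in how much signal they give for the same amount of RNA, so intensities of different probes do not rank the amounts of the arms.

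The miR-449 probes were all under the no-probe floor on both arrays. miR-449b read 158.2 and 189.4, and 12 and 17 of the spots without a probe were as bright. miR-449c-5p read 145.6 and 188.4, with 62 and 18 such spots as bright. miR-449a-5p, the most similar to miR-449c-5p among the family strands with a sequence here, read 147.5 and 179.8, with 53 and 46.

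The 3p arms of miR-449 were weaker still. miR-449a-3p read 144.3 and 177.6, above the floor on both arrays. miR-449c-3p read 140.6 in germ-free cells, past the net floor of 9.05, and 166.1 in SPF cells, under the floor. At this sensitivity the presence of any miR-449 member in the isolate was not detectable above the no-probe floor.

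Before comparing the arrays, SPF net intensities were multiplied by 0.849, which set the median of the 1471 miRNA probes above the floor on both arrays equal. The comparison asks whether the family's level in these cells differs between mice with and without a microbiota. None of the 7 family probes above the floor on both arrays differed by 2-fold or more. Of all 1471 probes, 1.56% were higher in SPF by that much and 1.43% were lower. At 1.5-fold, 1 family probe was higher (miR-34b-3p) and none lower, against 4.62% and 7.61% of all probes. The family median of log2 SPF over germ-free was 0.06 over the 9 probes above the floor on at least 1 array, with 5 values above and 4 below 0, and the median over the 1471 probes was -0.06.

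The error of each log2 value was built from the spots of these arrays. Repeated spots of bright control probes gave an SD of 0.127 for the log2 difference between single spots, and the spread of the background adds to it for weak spots. Taken from the blank spots, this technical SD ran from 0.18 for miR-34a-5p to 0.59 for miR-449a-3p. Taken from the spots without a probe, it ran from 0.35 to 1.41 for the same probes. Neither holds the spread between animals, RNA extractions or hybridisations. The SD from spots without a probe uses their spread across each array and treats the arrays as independent. The same spots compared between the arrays, for the 99 above the floor on both, had a log2 SD of 0.50. For the weaker probes that technical SD may therefore overstate the error of a difference between the arrays.

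miR-34a-5p was at -0.25 (0.844-fold), and the range of 2 technical SD with the spots without a probe ran from -0.95 to 0.46. The net intensities before scaling, 75.3 and 74.8, were nearly equal, and without scaling the log2 value was -0.01. miR-34c-3p was at 0.37 (1.29-fold), with a range from -0.37 to 1.10. Neither value exceeded 2 technical SD by either measure.

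miR-34b-3p had the highest value of the family at 0.72 (1.65-fold). The value was 2.36 times its technical SD from the blank spots and 1.04 times that from the spots without a probe. It was the one family probe, of 7, past 2 technical SD by the blank spots, and none was past it by the spots without a probe. With the no-probe floor, which the germ-free spot did not reach, its value became a bound of 0.32 or more, and it was 0.02 with local background subtraction.

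**Figure D2:**
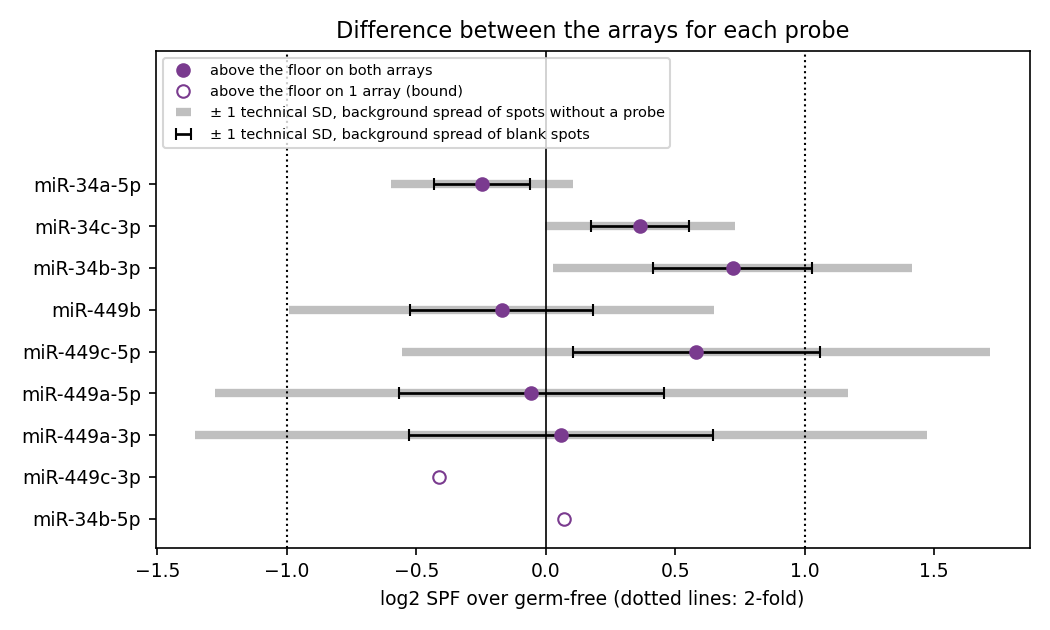
Log2 SPF over germ-free (x axis) of the 9 family probes above the floor on at least 1 array, 1 spot per array. Filled points were above the floor on both arrays and carry ± 1 technical SD, from the blank spots (black) and from the spots without a probe (grey). Open points are bounds without an error, and no filled point reaches the dotted lines at 2-fold.

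The miR-449 values lay on both sides of 0. miR-449c-5p was at 0.58, with a technical SD of 0.48 from the blank spots and 1.14 from the spots without a probe. miR-449b was at -0.17, miR-449a-5p at -0.05 and miR-449a-3p at 0.06, each smaller than its technical SD. The bounds were -0.41 or lower for miR-449c-3p and 0.07 or more for miR-34b-5p. miR-34a-3p and miR-34c-5p, under the floor on both arrays, have no value.

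The spread of such weak spots can be read from spots that hold no probe. Of the 174, 99 were above the floor on both arrays, and their log2 SPF over germ-free had a median of -0.03 and an SD of 0.50, running from -1.33 to 1.07. All 7 family values, from -0.25 to 0.72, lay inside that range. So did most of the 1471 miRNA probes, of which 1.56% were higher and 1.43% lower in SPF by 2-fold or more. Lying inside it therefore does not set the family apart. The spots without a probe had mean net intensities of 14.9 (germ-free) and 17.9 (SPF), below those of miR-34a-5p and miR-34c-3p.

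**Figure D3:**
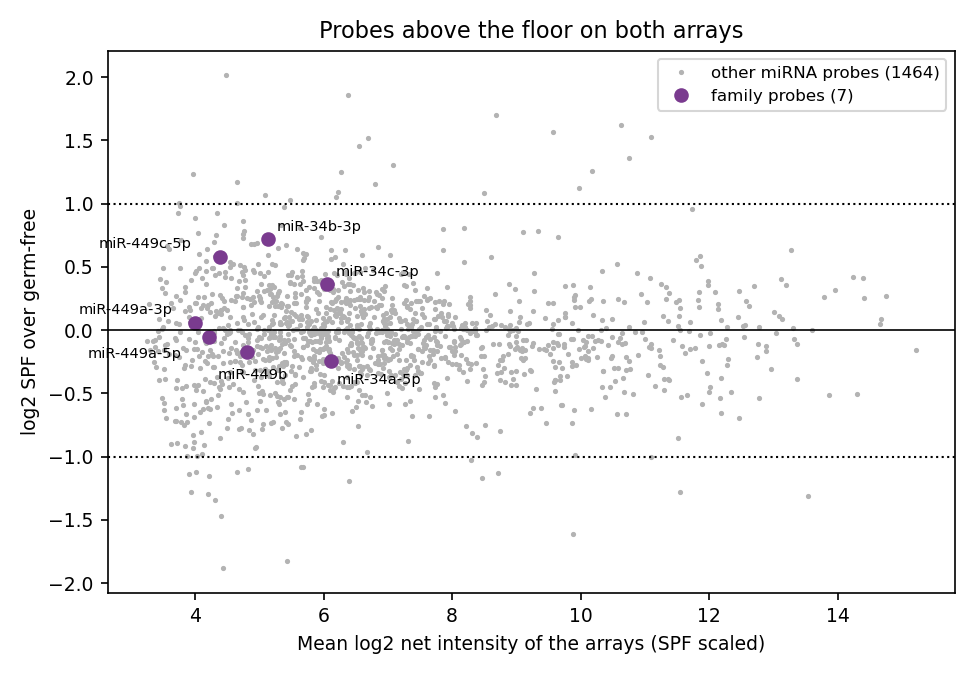
Log2 SPF over germ-free (y axis) against the mean log2 net intensity of both arrays (x axis) for the 1471 miRNA probes above the floor on both, with 7 family probes in purple. The family lies in the weak part of the plot and between the dotted lines at 2-fold.

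The direction was kept under all alternatives that gave a value for 4 probes: miR-34b-3p, miR-34c-3p and miR-449c-5p stayed above 0 and miR-449c-3p below. miR-34a-5p ran from -0.35 with scaling on control probes to 0.06 with local background subtraction. miR-449a-5p, miR-449a-3p, miR-449b and miR-34b-5p changed sign under 1 to 4 alternatives each, within a span from -0.54 to 0.54. No value reached 2-fold.

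**Figure D4:**
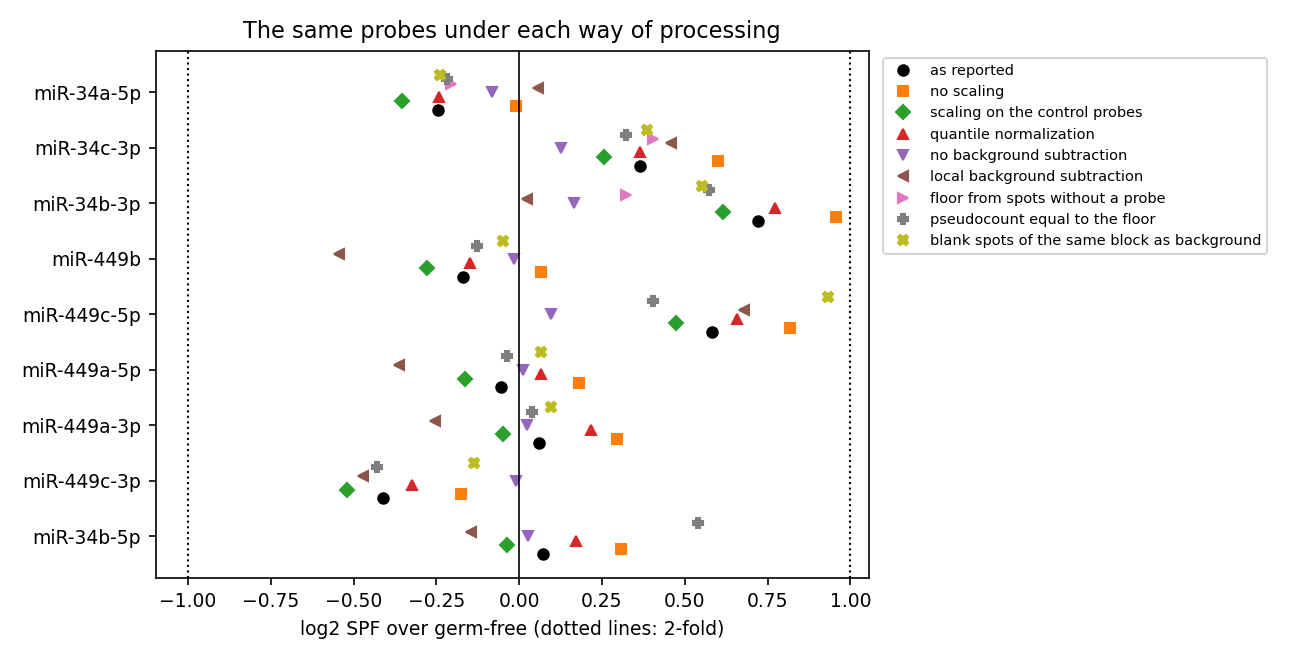
Log2 SPF over germ-free (x axis) of each family probe as reported (black circle) and under 8 other ways of processing (coloured symbols), 1 spot per array and with no symbol where a setting gave no value. miR-34b-3p spans 0.02 to 0.96 and miR-34a-5p -0.35 to 0.06, and no symbol passes the dotted lines at 2-fold.

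The pattern of miR-34a-5p, the brightest family probe, is shared by many probes, since 2 arrays give little to tell patterns apart. By distance over both log2 net intensities, the 5 nearest probes outside the family were miR-669e-5p, miR-7008-3p, miR-487b-5p, miR-770-5p and miR-6980-3p, at distances of 0.035 to 0.065. In all, 54 probes lay within 0.25.

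Other miRNAs tied to p53 were taken as a list of 14 miRNAs on 31 probes, chosen from general knowledge. Of these probes 20 passed the no-probe floor on both arrays, against 2 of 11 in the family and 54.8% of all miRNA probes. Of 27 above the floor on both arrays, 5 were higher in SPF by 2-fold or more and 1 was lower by that much, beside 1.56% and 1.43% of all probes. The list's median over 30 values was 0.15.

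miRNAs known to be transcribed or processed with the help of p53 made up 10 of the 14. The highest were miR-192-3p at 2.01, from a germ-free net intensity of 11.1 near the floor, miR-192-5p at 1.62 and miR-194-5p at 1.36. The lowest were miR-16-2-3p at -1.10, miR-15a-3p at -0.70 and miR-15a-5p at -0.53, all from precursors of the miR-15 and miR-16 clusters. The spots of miR-16-2-3p and miR-15a-3p did not pass the no-probe floor on both arrays. miRNAs reported to repress p53 itself (miR-25, miR-30d, miR-125b and miR-504) had a median of -0.15 over 9 values, running from -0.38 to 0.34, with none at 2-fold.

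All 5 probes at least 2-fold higher belong to miR-192, miR-194, miR-215 and miR-200c, which also mark intestinal epithelium. Without these 4 miRNAs the median was -0.09 over 21 values, with none at least 2-fold higher and 1 lower. On the same arrays 16 of 16 epithelial marker probes with a value were higher on the SPF array, beside 663 of all 1579 miRNA probes with a value. The epithelial median was 1.10, with net intensities up to 1292 (germ-free) and 4379 (SPF, unscaled). Leukocyte markers were lower in 8 of 10 probes, beside 916 of those 1579, with a median of -0.52 and net intensities up to 18699 and 8894. The other 2 were miR-223-3p, at 0.74, and miR-223-5p, under the germ-free floor, at a bound of 0.84 or more. The part of the cell makeup in these values was not tested, and fewer cells of a type and less RNA per cell cannot be told apart in bulk RNA. miR-34a-5p, at -0.25, and miR-34c-3p, at 0.37, lay between the medians of those marker lists. The median of all miRNA probes above the floor on both arrays, -0.06, did too, so this position does not set the 2 probes apart.

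Markers of other cell types and organs were counted against the same floor. Of 6 smooth muscle probes 3 passed the no-probe floor on both arrays, and of 2 endothelial probes 1 did, against 54.8% of all miRNA probes. For miR-122, miR-208a, miR-216a and miR-217, typical of liver, heart and pancreas, 1 of 8 probes did. That probe, miR-208a-5p, had net intensities of 95.0 (germ-free) and 108.3 (SPF). The brightest family probe of each array had 75.3 and 89.1. Passing the no-probe floor therefore does not by itself show that a miRNA was present in the cells.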

How the data were processed

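Total RNA, extracted with a Qiagen kit, was labelled with Hy5 using an Exiqon kit, per the labels' protocols. The authors deposited, for each of 3200 spots, a median intensity and a median local background intensity at 635 nm; per the file headers, 3 gains were scanned and related by least-squares lines. No subtraction or scaling between arrays is visible in the columns. No source used here gives the array platform, the probe sequences or the scanner.

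Groups came from sample titles. Net intensity, the floor (blank mean + 2 SD, leaving out 1 blank spot marked NG) and median scaling were computed in Python 3.11.15 with NumPy 2.4.6 and pandas 2.3.3. A value under the floor on 1 array was set to the floor, so its log2 value is a bound. The technical SD combines 4 control probes of 8 spots each (mean intensity over 500) with the background SD divided by the net intensity. The procedure was run on simulated arrays whose background noise had the SD of the germ-free blank spots. The spots without a probe varied more, so the simulation does not cover their spread. With 1 array per group no test was run.

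The members, the lists, the rule for naming probes and the floors were chosen with earlier results of these data known. Named were all family probes, their seed mates, the 5 nearest probes to the brightest member, and the 3 highest and 3 lowest of the other p53-linked list. Marker lists covered leukocytes, epithelium, smooth muscle, endothelium and unsampled organs. Alternatives changed the scaling, the background, the floor, the pseudocount, the arms used and the fold threshold.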

Additional observations from a re-analysis of the deposited data

How the results depend on the processing

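No family probe reached 2-fold under any alternative tried, and at a threshold of 1.5-fold 1 did. As reported, 1.56% of the 1471 miRNA probes were higher in SPF by 2-fold or more and 1.43% lower. At 1.5-fold these shares were 4.62% and 7.61%. With shares this small, 0 of 7 at 2-fold does not set the family apart. The shares of all probes under the other alternatives are not given here. The family median of 0.06 was 0.30 without scaling, -0.15 with local background subtraction, and 0.32 with the stricter no-probe floor, which left 3 probes. It was -0.05 with scaling on the control probes, so its direction is not settled. A single scaling factor shifts all probes alike, while quantile normalization does not. Quantile normalization gave -0.24 for miR-34a-5p, which was at -0.25, and 0.22 for miR-449a-3p, which was at 0.06. The median of all miRNA probes above the floor on both arrays was -0.06 as reported, 0.18 without scaling and -0.16 with scaling on the control probes. With local background subtraction it was -0.04. Of the 11 family probes, 7 were above the floor on both arrays, beside 77.4% of all miRNA probes. With the no-probe floor 2 were, beside 54.8% of all miRNA probes. With a floor at mean + 5 SD of the blank spots 4 were, and that share of all probes is not given here. The median of the other p53-linked list, 0.15, was 0.39 without scaling and stayed above 0 under every alternative run. For the 7 probes above the floor on both arrays, 43 of 52 values under alternatives moved by no more than the technical SD from the blank spots, and 8 had the opposite sign. Using the blank spots of the same block, an alternative chosen after seeing the data, gave a family median of 0.10 with 9 values, among them miR-34c-5p at 0.18 in place of miR-34b-5p. The signal over background is low, since 9 of 11 probes lay under the no-probe floor on at least 1 array.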
